A study of Mus musculus with 6 samples.

Results

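The vacuolar-type proton ATPase (V-ATPase) is the pump that acidifies lysosomes, and in osteoclasts it acidifies the pit under the cell in which bone mineral dissolves. Its cytosolic V1 sector splits ATP, and its membrane-embedded V0 sector carries the protons across the membrane through a rotating ring of c subunits beside the a subunit. The a and d subunits come in several isoforms encoded by separate genes. Tcirg1 encodes a3 and Atp6v0d2 encodes d2, the forms for which osteoclasts are known, whereas Atp6v0a1, Atp6v0a2 and Atp6v0d1 encode forms that are expressed widely.

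The genes of the membrane sector were examined in osteoclast precursors of LPS-injected mice given a JAK inhibitor or vehicle, with the 2 osteoclast isoforms set against the widely expressed ones. The 10 genes were taken by symbol from the 24346 gene symbols measured. They are Atp6v0a1, Atp6v0a2 and Tcirg1 (a subunits), Atp6v0b (c″ subunit) and Atp6v0c (c subunit) of the ring, Atp6v0d1 and Atp6v0d2 (d subunits), Atp6v0e (e subunit), and the accessory subunits Atp6ap1 and Atp6ap2. The genes were taken as a family and not by a threshold on their values, but with earlier results of these data known. Atp6v0d2 is among the genes that the study names as lower in these same mice, so its direction is not independent evidence.

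RNA-Seq was performed on EGFP+ cells sorted from the bone marrow of the calvaria (the skull cap) of CX3CR1-EGFP knock-in mice, in which the promoter of the fractalkine receptor gene drives a green reporter in cells of the monocyte lineage. All 6 mice had received lipopolysaccharide (LPS, 20 mg/kg) at the calvarial periosteum, and no mouse without LPS was among them. For 5 days, 3 mice were given the JAK1-selective inhibitor ABT-317 by mouth (60 mg/kg, 2 doses per day), and the other 3 were given vehicle. The age of these mice is not given in the sources used here. The values are FPKM, in which fragment numbers are divided by the length of the transcript and the size of the library, so that levels of different genes can be set side by side.

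The monocyte markers Cx3cr1 and Csf1r were present in every mouse, at 15.5 to 36.1 FPKM and 355 to 422 FPKM, and Tnfrsf11a, which encodes the receptor for the osteoclast differentiation factor RANKL, lay at 2.70 to 8.09 FPKM. Calcr, a marker of mature osteoclasts, was listed at 0 in every mouse, whereas other genes that mature osteoclasts are known for were present, Acp5 at 90.7 to 383 FPKM, Ctsk at 7.55 to 168 FPKM and Mmp9 at 7.89 to 66.9 FPKM. All 6 measured markers of mature neutrophils were above 0 in every mouse, summing to 6530 to 13350 FPKM with the JAK inhibitor and 9983 to 20090 FPKM with vehicle. Most of this sum was S100a8 (4970 to 15469 FPKM) and S100a9 (1401 to 4198 FPKM). The other markers lay between 2.51 (Retnlg) and 356 FPKM (Mmp8). The labels name osteoclast precursors alone, and the number of neutrophils among the cells was not tested. Vehicle-treated mouse 3 was the library least like the others, with the lowest Cx3cr1 and the highest Tnfrsf11a, and the differences it weighs on most are also given without it. The FPKM summed to 688372 to 775790 per mouse. Read depth is unknown, so no counting intervals are given.

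All 10 membrane sector genes were expressed, over a wide range of levels. In the vehicle-treated mice the order of mean FPKM was Atp6v0e (571), Atp6v0b (479), Atp6ap1 (287), Atp6v0c (266), Atp6ap2 (157), Tcirg1 (67.9), Atp6v0d1 (48.0), Atp6v0a2 (14.1), Atp6v0a1 (9.33) and Atp6v0d2 (7.79). The order was the same in the JAK inhibitor-treated mice. Atp6ap1 and Atp6v0c overlapped over the mice in both groups, as did Tcirg1 and Atp6v0d1. Atp6v0a1 and Atp6v0d2 overlapped with vehicle but not with the JAK inhibitor. The other neighbours did not overlap, so the small membrane subunits c″ and e stood above the large a subunits in each mouse. The a4 gene Atp6v0a4, known from kidney and inner ear, and the second e gene Atp6v0e2 were listed at 0 in all 6 mice. Rnasek, a small protein that associates with the membrane sector, lay at 333 to 385 FPKM with the JAK inhibitor and 328 to 385 FPKM with vehicle.

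**Figure D1:**
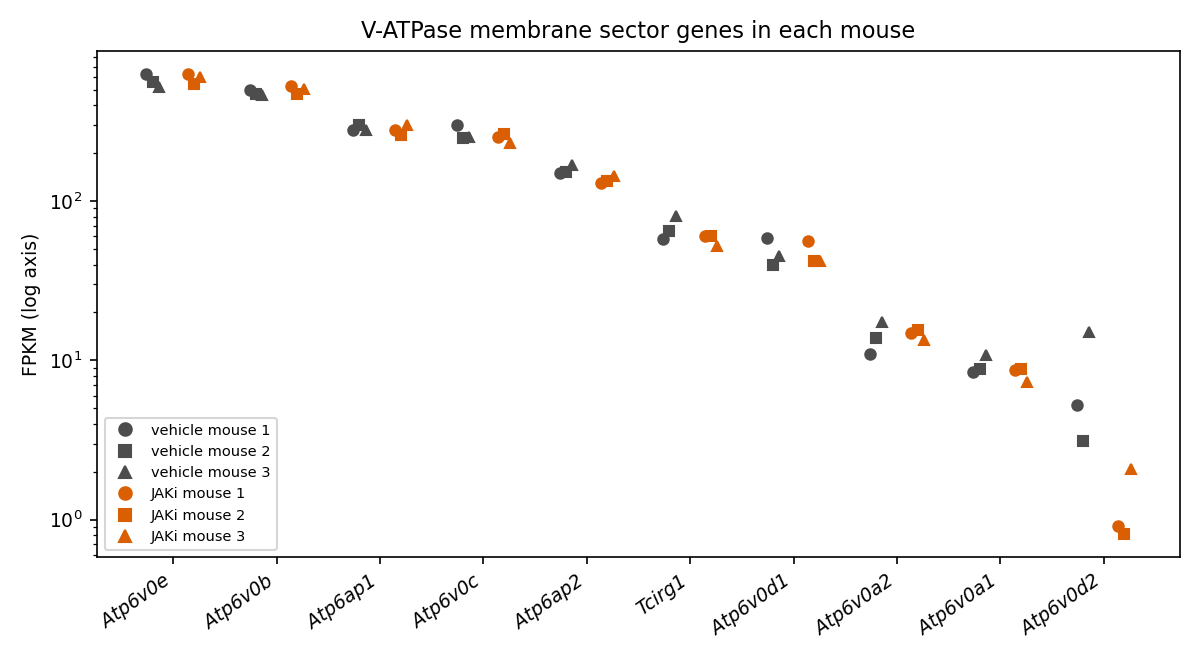
FPKM of the 10 membrane sector genes in each mouse, on a log axis, ordered by the vehicle mean; gray points are vehicle-treated and orange points JAK inhibitor-treated mice, and the marker shape gives the mouse number, which does not pair mice. Atp6v0d2 lies at 0.811 to 2.09 FPKM with the JAK inhibitor and at 3.10 to 15.0 FPKM with vehicle, whereas most other genes lie at about the same height in both groups.

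Atp6v0d2 was the one membrane sector gene with a large difference between the groups. The d subunit sits on top of the c ring and links it to the central stalk of V1, and the d2 isoform is also known for a role in the fusion of osteoclast precursors. Atp6v0d2 was measured at 0.917, 0.811 and 2.09 FPKM in JAK inhibitor-treated mice 1 to 3. In vehicle-treated mice 1 to 3 it was measured at 5.28, 3.10 and 15.0 FPKM. Every JAK inhibitor-treated mouse was below every vehicle-treated mouse, and vehicle-treated mouse 3 was far above the other two of its group. The means were 1.27 ± 0.71 and 7.79 ± 6.32 FPKM (SD, n = 3 mice each), a ratio of 6.12. Computed on log2(FPKM + 1), where the change of a low gene comes out too small, the difference was -1.75 (SE 0.45, 95% interval -2.77 to -0.73). Limma, fitted over the 11301 genes with at least 1 FPKM in at least 1 mouse, gave p = 0.00369 and a Benjamini-Hochberg adjusted p = 0.131, and an exact 2-sided permutation test of this gene alone gave p = 0.1. The difference thus did not pass the threshold of 0.05 on the adjusted p, and 3 against 3 mice allow no permutation p below 0.1. Without vehicle-treated mouse 3 the limma difference was -1.20 with an adjusted p of 0.179.

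Atp6v0d2 was also among the genes that varied most within a group. Its coefficient of variation over the vehicle-treated mice was 81.2%, at percentile 96.0 of the tested genes, whereas its mean level was at percentile 29.6. In bulk RNA, fewer cells that express a gene and less of its RNA per cell cannot be told apart. The summed markers of osteoclasts were lower with the JAK inhibitor, as Atp6v0d2 was. The 10 listed markers, of which 7 were above 0 in every mouse, summed to 154.1 to 156.7 FPKM with the JAK inhibitor. They summed to 313.6, 204.1 and 672.8 FPKM in vehicle-treated mice 1 to 3, and the groups did not overlap. Acp5 was the largest part of the sum in every mouse. Of the 9 markers tested, 5 (Ctsk, Acp5, Mmp9, Ocstamp and Dcstamp) were lower at an unadjusted p under 0.05, beside 9.4% of all tested genes. Ocstamp, Dcstamp and Oscar reached the filter of 1 FPKM only in vehicle-treated mice. The study names Ctsk, Ocstamp and Dcstamp as lower in these same mice. The count is therefore not independent evidence of a difference in osteoclast markers. In the other direction 1 marker, Itgb3, was higher, beside 6.57% of all tested genes. The 8 macrophage markers, all above 0 in every mouse, summed to 524 to 659 and 712 to 867 FPKM, and the groups of the sum did not overlap either. Cd68 was the largest part of this sum in every mouse, and its own groups overlapped. Of the 8 markers, 2 (C1qb and Mertk) had groups apart, both lower, beside 12.1% of all tested genes. In the other direction 1 (Vcam1) had a log2 difference above 0, with overlapping groups. The 4 erythroid markers summed to 6.08 to 50.2 FPKM with the JAK inhibitor and 0.69 to 2.77 with vehicle. The sums for the 6 monocyte markers overlapped, at 4818 to 5232 and 3632 to 5356 FPKM, and most of each sum was Ly6c2 (2751 to 4617 FPKM). Of the 6 monocyte markers, 3 had a log2 difference below 0 and 3 above 0. Itgam and Cd14, 2 of the 6, were lower at an unadjusted p under 0.05, beside 9.4% of all tested genes, and none was higher. The 7 B, T and NK cell markers summed to at most 3.61 FPKM and the 6 osteoblast and stromal markers to at most 7.07 FPKM in any mouse, with Ms4a1 listed at 0. The part of these markers in the Atp6v0d2 difference was not tested.

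The genes with the pattern most like Atp6v0d2 over the 6 mice, by Pearson r of log2(FPKM + 1) among 10471 genes with a mean of at least 1 FPKM, were Pirb, C1rl, Baiap2, Acp2 and Nek6, with r of 0.996 to 0.997 (0.988 to 0.996 without vehicle-treated mouse 3). Pirb encodes an inhibitory immunoglobulin-like receptor of myeloid cells, and Acp2 encodes a lysosomal acid phosphatase. Acp2 lay at 9.86 to 12.9 FPKM with the JAK inhibitor and 14.4 to 30.5 FPKM with vehicle. Of the 10 osteoclast markers, 8 were among the genes compared, and they did not all follow Atp6v0d2. Ctsk, the collagen-cutting protease of osteoclasts, was at place 47 in this order (r = 0.980, and 0.954 without vehicle-treated mouse 3), and Acp5, the osteoclast phosphatase TRAP, was at place 163 (r = 0.953, and 0.848 without that mouse). The protease gene Mmp9, the fusion genes Ocstamp and Dcstamp, and Tnfrsf11a were at places 243, 382, 502 and 713 (r of 0.861 to 0.939, and 0.473 to 0.836 without that mouse). Nfatc1, the transcription factor of osteoclast differentiation, was at place 2441 (r = 0.559, and -0.838 without that mouse), and Itgb3, an integrin chain of osteoclasts, was at place 10409, near the opposite end (r = -0.964, and -0.919 without that mouse). These are descriptions over 6 points that share 6 libraries, 1 of which, vehicle-treated mouse 3, held by far the highest Atp6v0d2 value. Ctsk was measured at 7.55, 13.004 and 18.5 FPKM in JAK inhibitor-treated mice 1 to 3 and at 55.4, 37.5 and 168 FPKM in vehicle-treated mice 1 to 3. As with Atp6v0d2, the groups did not overlap and the same mice were highest and lowest within the vehicle group. Among the membrane sector genes, Atp6ap2 had the highest r with Atp6v0d2 (0.951, and 0.888 without vehicle-treated mouse 3), and its sister Atp6v0d1 had an r of 0.048 (0.216 without that mouse).

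**Figure D2:**
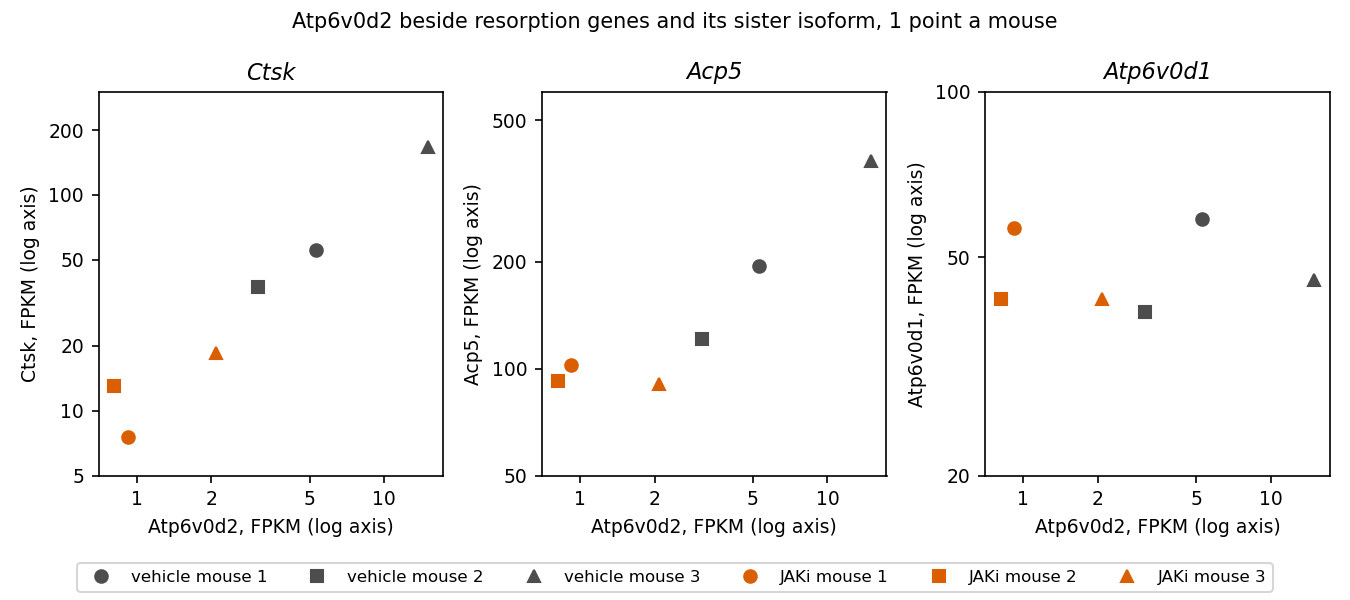
Atp6v0d2 (x axis) against Ctsk, Acp5 and Atp6v0d1 (y axes), all in FPKM on log axes, with 1 point per mouse, gray for vehicle and orange for the JAK inhibitor. Ctsk and Acp5 are highest where Atp6v0d2 is highest, in vehicle-treated mouse 3, while Atp6v0d1 stays between 39.7 and 58.8 FPKM.

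The d1 and d2 isoforms could be told apart in these reads, which matters for setting one against the other. No stretch of 75 bases, the read length, was shared between the annotated transcripts of either gene and those of any other gene. The 75 coding bases in which the isoforms are most alike, shown because they are where a read would be hardest to assign, match at 59 positions and differ at 16. In the sequences below, capitals mark the differing bases, and each window starts at coding base 101 and spans exons 1 and 2 (GRCm38, minus strand, chr8:105539448-105565812 for Atp6v0d1 and chr4:19910714-19922397 for Atp6v0d2, introns included).
Atp6v0d1: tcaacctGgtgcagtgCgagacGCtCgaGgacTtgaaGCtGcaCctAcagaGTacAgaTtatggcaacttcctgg
Atp6v0d2: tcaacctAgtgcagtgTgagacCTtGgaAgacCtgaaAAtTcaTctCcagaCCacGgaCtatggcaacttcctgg

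Atp6v0d1, the widely expressed d isoform, was measured at 56.5, 42.0 and 42.0 FPKM in JAK inhibitor-treated mice 1 to 3. It was measured at 58.8, 39.7 and 45.4 FPKM in vehicle-treated mice 1 to 3. The groups overlapped almost wholly, with a difference of -0.03 (SE 0.17, 95% interval -0.41 to 0.35). The log2 ratio of Atp6v0d2 to Atp6v0d1 within each mouse, each as FPKM + 1, was -4.91, -4.57 and -3.80 with the JAK inhibitor and -3.25, -3.31 and -1.54 with vehicle. The ratio was lower in every JAK inhibitor-treated mouse, by 1.72 on average (difference -1.72, exact permutation p = 0.1), and by 1.14 without vehicle-treated mouse 3 (difference -1.14). The added 1 FPKM makes the ratio of so low a gene come out too small, and with 0.1 FPKM added the difference was -2.30.

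As a share of the summed FPKM of both d isoforms, Atp6v0d2 made up 1.597%, 1.90% and 4.74% in the mice 1 to 3 given the JAK inhibitor, and 8.24%, 7.24% and 24.8% in vehicle-treated mice 1 to 3. Even with vehicle, most d subunit RNA was thus of the d1 form. The mean shares were 2.74 ± 1.73% and 13.4 ± 9.86% (SD, n = 3), a difference of -10.7 percentage points that became -5.00 without vehicle-treated mouse 3. The summed FPKM of the d isoforms overlapped between the groups, at 42.8 to 57.4 with the JAK inhibitor and 42.8 to 64.1 with vehicle.

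The osteoclast isoform of the a subunit differed far less. The a subunit holds the half-channels through which protons enter and leave the ring, and loss of a3 causes osteopetrosis in mice and people. Tcirg1 was measured at 60.6, 60.2 and 52.6 FPKM in JAK inhibitor-treated mice 1 to 3 and at 57.9, 64.7 and 81.1 FPKM in vehicle-treated mice 1 to 3. The groups overlapped, because vehicle-treated mouse 1 lay below 2 of the JAK inhibitor-treated mice. The means were 57.8 ± 4.54 and 67.9 ± 11.9 FPKM (SD, n = 3), and the log2 difference of -0.22 (SE 0.13, 95% interval -0.52 to 0.08) did not pass the test (limma p = 0.137, adjusted p = 0.467; exact permutation p = 0.3). Without vehicle-treated mouse 3 the difference was -0.08.

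The other a genes had no clear difference. Atp6v0a1 was measured at 8.72, 8.89 and 7.36 FPKM with the JAK inhibitor and 8.41, 8.77 and 10.8 FPKM with vehicle. Atp6v0a2 was measured at 14.8, 15.4 and 13.5 FPKM with the JAK inhibitor and 10.9, 13.9 and 17.5 FPKM with vehicle. Both genes overlapped between the groups, with log2 differences of -0.15 (SE 0.15) and 0.07 (SE 0.17). All 3 expressed a genes were highest in vehicle-treated mouse 3, without which the differences of Atp6v0a1 and Atp6v0a2 were -0.04 and 0.22. As a description over the 6 mice, Tcirg1 and Atp6v0a1 had r = 0.970 (0.905 without vehicle-treated mouse 3). Atp6v0a2 followed them less, with r = 0.666 to Atp6v0a1 and 0.680 to Tcirg1 (0.291 for both without that mouse), and was lowest in vehicle-treated mouse 1. The genes most like Tcirg1 were Alas1, which encodes the first enzyme of heme synthesis (r = 0.9998), followed by Deptor, Bdh1, Alkbh6 and Mgat4a (r of 0.986 to 0.988, and 0.942 to 0.951 without vehicle-treated mouse 3).

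Set against the mean of Atp6v0a1 and Atp6v0a2 within each mouse, Tcirg1 showed a small difference. The log2 ratio of Tcirg1 to the mean of the other two was 2.32, 2.26 and 2.28 with the JAK inhibitor and 2.48, 2.45 and 2.47 with vehicle. The groups did not overlap and their SDs were only 0.026 and 0.017, so that the difference of -0.18 was several times the spread between mice (exact permutation p = 0.1, the smallest possible). Leaving out each mouse in turn gave -0.19 to -0.17. By itself Tcirg1 had a log2 difference of -0.22, Atp6v0a1 one of -0.15 and Atp6v0a2 one of 0.07. Of the 2 widely expressed genes, Atp6v0a2 was thus the one whose difference had the other sign from that of Tcirg1. Tcirg1 was not tested against either gene alone. As a share of the summed a isoforms, Tcirg1 made up 71.6 ± 0.43% with the JAK inhibitor and 74.4 ± 0.51% with vehicle. Atp6v0a2 had a higher share with the JAK inhibitor, at 17.6%, 18.3% and 18.4% against 14.1%, 15.9% and 16.0%, while the Atp6v0a1 share overlapped at 10.3% on average in both groups. Some 7.56% of the 75-base words in the Atp6v0a2 transcripts also occur, on either strand, in those of 4930404A12Rik. It is not known here whether the counting used strand.

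**Figure D3:**
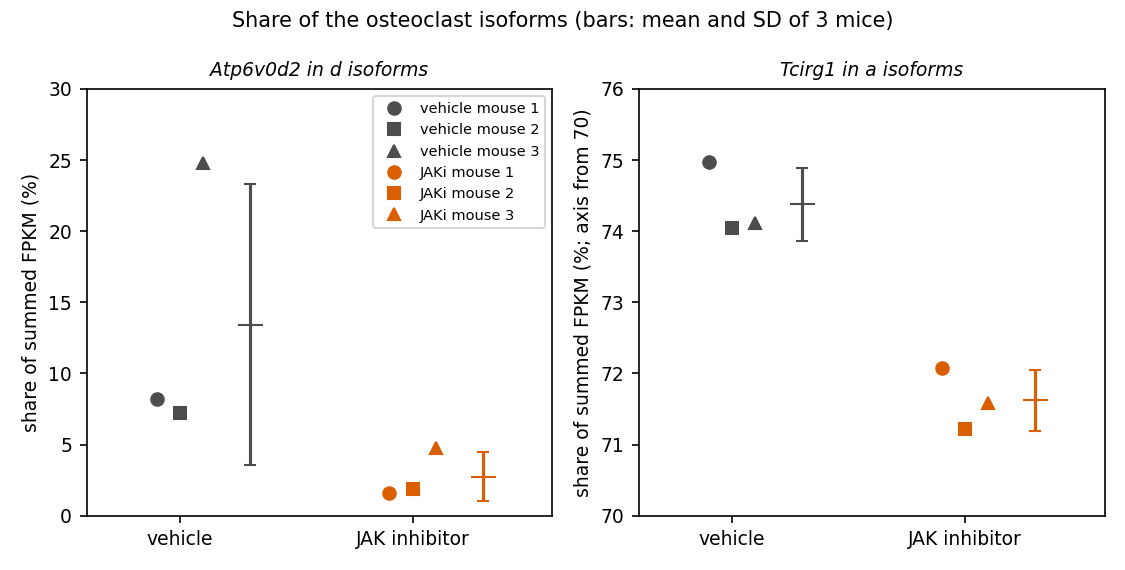
Share of Atp6v0d2 in the summed FPKM of Atp6v0d1 and Atp6v0d2 (left, axis from 0) and of Tcirg1 in that of the a isoforms (right, axis from 70), in percent, with 1 point per mouse and the mean with its SD (n = 3) beside each group. In both panels every JAK inhibitor-treated mouse (orange) lies below every vehicle-treated mouse (gray), by 10.7 percentage points for Atp6v0d2 and 2.76 for Tcirg1 on average.

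The ring subunits and the e subunit were among the most abundant members, and none of the 3 genes differed clearly. Atp6v0b was measured at 528, 472 and 509 FPKM with the JAK inhibitor and 502, 469 and 465 FPKM with vehicle, a log2 difference of 0.07 (SE 0.08). Atp6v0e, a small subunit that spans the membrane beside the a subunit, was measured at 628, 544 and 606 FPKM with the JAK inhibitor and 631, 562 and 519 FPKM with vehicle, a log2 difference of 0.06 (SE 0.10). Both genes overlapped between the groups, and both were lowest among the vehicle-treated mice in mouse 3. Part of the Atp6v0b transcripts, 7.11% of their 75-base words, also occurs, on either strand, in those of Gm12841.

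Atp6v0c, the gene of the c subunit, was measured at 253, 262 and 230.35 FPKM in JAK inhibitor-treated mice 1 to 3 and at 300.2, 247 and 252 FPKM in vehicle-treated mice 1 to 3. The groups overlapped and the log2 difference was -0.10 (SE 0.10, 95% interval -0.33 to 0.13). This value is uncertain, because reads of Atp6v0c can be assigned to Atp6v0c-ps2, a processed pseudogene (a copy of the spliced RNA inserted elsewhere in the genome) that was examined after the values were seen. The Atp6v0c coding sequence has 465 bases, 464 of which match the copy, and the single substitution is T111C, counted from the first coding base. The first 150 bases of both are shown because they hold that difference, in capitals (GRCm38, chr17:24164812-24169284, minus strand, exons 2 and 3 with the intron between them in this span, and chr6:37806086-37806235, plus strand).
Atp6v0c: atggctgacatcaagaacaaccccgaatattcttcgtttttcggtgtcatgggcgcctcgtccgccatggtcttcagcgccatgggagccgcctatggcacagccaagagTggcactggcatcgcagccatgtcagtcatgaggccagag
Atp6v0c-ps2: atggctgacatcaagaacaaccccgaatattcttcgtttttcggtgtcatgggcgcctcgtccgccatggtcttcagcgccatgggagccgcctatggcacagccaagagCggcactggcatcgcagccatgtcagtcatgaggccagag

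Of the 391 words of 75 bases in Atp6v0c-ps2, 316 (80.8%) also occur in Atp6v0c transcripts, and they make up 43.8% of the words of the coding transcript. The copy was nonetheless listed above the gene in every mouse. Atp6v0c-ps2 was measured at 445, 396 and 491 FPKM with the JAK inhibitor and at 607, 580.0 and 839.5 FPKM with vehicle. Its groups did not overlap, with a log2 difference of -0.59 (SE 0.15, limma p = 0.00309, adjusted p = 0.123, exact permutation p = 0.1). The copy held 60.1% to 76.9% of the summed FPKM of the pair. The sum was 699, 658 and 721 FPKM with the JAK inhibitor and 907, 827 and 1091 FPKM with vehicle, lower in every JAK inhibitor-treated mouse (log2 difference -0.43, SE 0.11, 95% interval -0.69 to -0.18, limma p = 0.00352, adjusted p = 0.130, exact permutation p = 0.1). The difference was thus -0.10 for the gene row alone and -0.43 with the copy added, and neither passed the adjusted threshold. FPKM is per length, and the coding transcript has 796 bases where the copy has 465. The sum is therefore not the level of 1 gene. How reads were divided between the 2 rows is not known here.

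**Figure D4:**
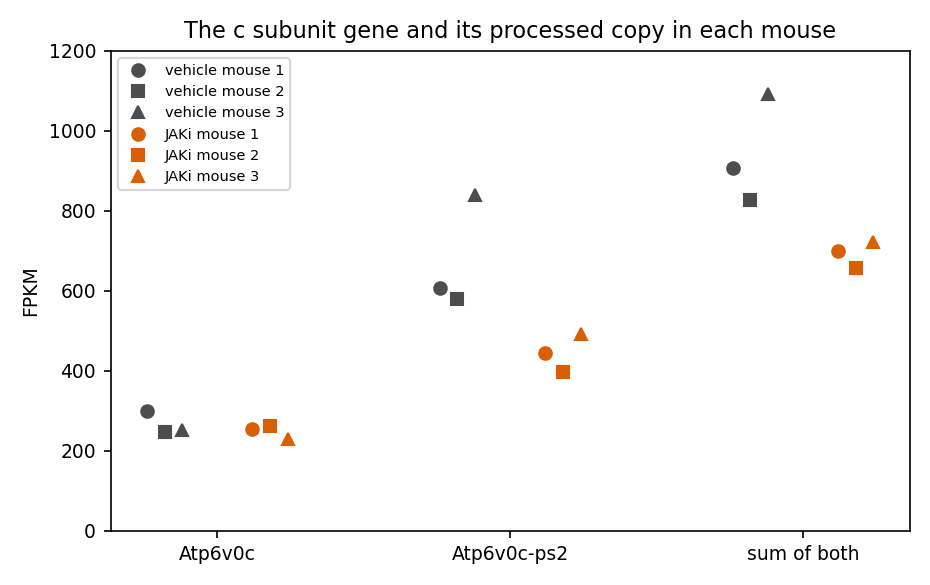
FPKM of Atp6v0c, of its processed copy Atp6v0c-ps2 and of their sum in each mouse, gray for vehicle and orange for the JAK inhibitor, with the marker shape giving the mouse number. The groups overlap for Atp6v0c (230.35 to 300.2 FPKM) but not for the copy (396 to 491 against 580.0 to 839.5 FPKM) or the sum.

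The accessory subunits assist the assembly and targeting of the pump, and Atp6ap2 is also known as the prorenin receptor. Atp6ap1 was measured at 278, 259 and 299.8 FPKM with the JAK inhibitor and 281, 300.3 and 279 FPKM with vehicle, a log2 difference of -0.04 (SE 0.09) with overlapping groups. Atp6ap2 was measured at 129.9, 134 and 145 FPKM in JAK inhibitor-treated mice 1 to 3 and at 149, 153 and 168 FPKM in vehicle-treated mice 1 to 3. All 3 values with the JAK inhibitor lay below all 3 with vehicle, although the highest and lowest of the groups were close. The log2 difference was -0.20 (SE 0.09, 95% interval -0.40 to 0.00), with limma p = 0.0501 and adjusted p = 0.313 (exact permutation p = 0.1). Without vehicle-treated mouse 3 it was -0.15. Atp6ap2 spans chrX:12587801-12617049 on the plus strand, Atp6v0d2 spans chr4:19876841-19922605 on the minus strand, and Tcirg1 spans chr19:3896050-3907133 on the minus strand (GRCm38).

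None of the 10 membrane sector genes passed an adjusted p of 0.05 in limma, where 0.133% of all tested genes did. At an unadjusted p under 0.05, 1 of 10 (Atp6v0d2) was lower with the JAK inhibitor, beside 9.4% of all tested genes, and none was higher, beside 6.57%. Atp6v0d2 and Atp6ap2, 2 of 10, had groups that did not overlap and were lower with the JAK inhibitor, beside 12.1% of all tested genes. None had groups apart in the other direction, beside 9.92%, so that 2 of 10 compare with 22% of all tested genes in either direction. These shares are small numbers of genes near the background, and nothing is read from them about the sector. The median log2 difference of the 10 genes was -0.07, with 7 below and 3 above 0, beside -0.004 over all tested genes. Without Atp6v0d2 the other 9 had a median of -0.04 and ranged from -0.22 to 0.07, and their 95% intervals together ran from -0.52 to 0.45.

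The cytosolic V1 sector, which splits ATP to turn the ring, showed a like picture without an outlying isoform. Of its 13 listed genes, 9 were tested, 8 with a log2 difference below 0 and 1 above 0. Their median was -0.08, with a range of -0.36 to 0.00. The kidney isoform gene Atp6v1b1 was listed at 0 in every mouse. Atp6v1a, the catalytic subunit, was the 1 V1 gene lower at an unadjusted p under 0.05, beside 9.4% of all tested genes. Atp6v1a was measured at 51.1, 46.7 and 53.8 FPKM with the JAK inhibitor and 65.8, 57.9 and 65.6 FPKM with vehicle. Its groups did not overlap (log2 difference -0.31, SE 0.10, limma p = 0.0123, adjusted p = 0.191, exact permutation p = 0.1). With Atp6v1a, 2 of the 9 tested V1 genes had groups apart, both lower, beside 12.1% of all tested genes.

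Of 11 genes for assembly and regulation of the pump, 10 were tested, 9 had a difference below 0, and the median was -0.09. Rogdi is a subunit of the mammalian RAVE-like complex that helps V1 and V0 to join. It was the 1 gene lower at an unadjusted p under 0.05, beside 9.4% of all tested genes. Rogdi was measured at 54.3, 51.7 and 56.5 FPKM with the JAK inhibitor and 68.4, 69.2 and 85.0 FPKM with vehicle. Its groups did not overlap (log2 difference -0.44, SE 0.11, limma p = 0.00294, adjusted p = 0.122, exact permutation p = 0.1). With Rogdi, 3 of the 10 tested genes had groups apart and were lower, beside 12.1% of all tested genes. In the other direction 1 had groups apart, beside 9.92%.

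Acid secretion by osteoclasts also needs chloride to follow the protons, carbonic anhydrase to supply them, and vesicle traffic to bring the pump to the ruffled border. Of the 6 genes listed for these roles, 1 had an unadjusted p under 0.05, beside 16% of all tested genes in either direction. This gene was Clcn7, the chloride-proton exchanger of lysosomes and the ruffled border. Clcn7 was measured at 16.9, 18.0 and 18.1 FPKM with the JAK inhibitor and 22.1, 23.1 and 23.2 FPKM with vehicle. The mice of each group lay close together and the groups were well apart (log2 difference -0.35, SE 0.10, limma p = 0.00783, adjusted p = 0.164, exact permutation p = 0.1). Its partner subunit Ostm1 had a difference of -0.21 (SE 0.14), and the sorting nexin Snx10 one of -0.23 (SE 0.12). The anion exchanger Slc4a2 had a difference of -0.19 (SE 0.18). Carbonic anhydrase 2 (Car2) had a difference of 0.19 (SE 0.13) and the lysosome adaptor Plekhm1 one of 0.31 (SE 0.18), and none of these 5 passed an unadjusted p of 0.05. The groups of Plekhm1 did not overlap either, in the other direction, at 6.39 to 9.74 FPKM with the JAK inhibitor and 5.37 to 6.11 FPKM with vehicle. The median of the 6 was -0.20.

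**Figure D5:**
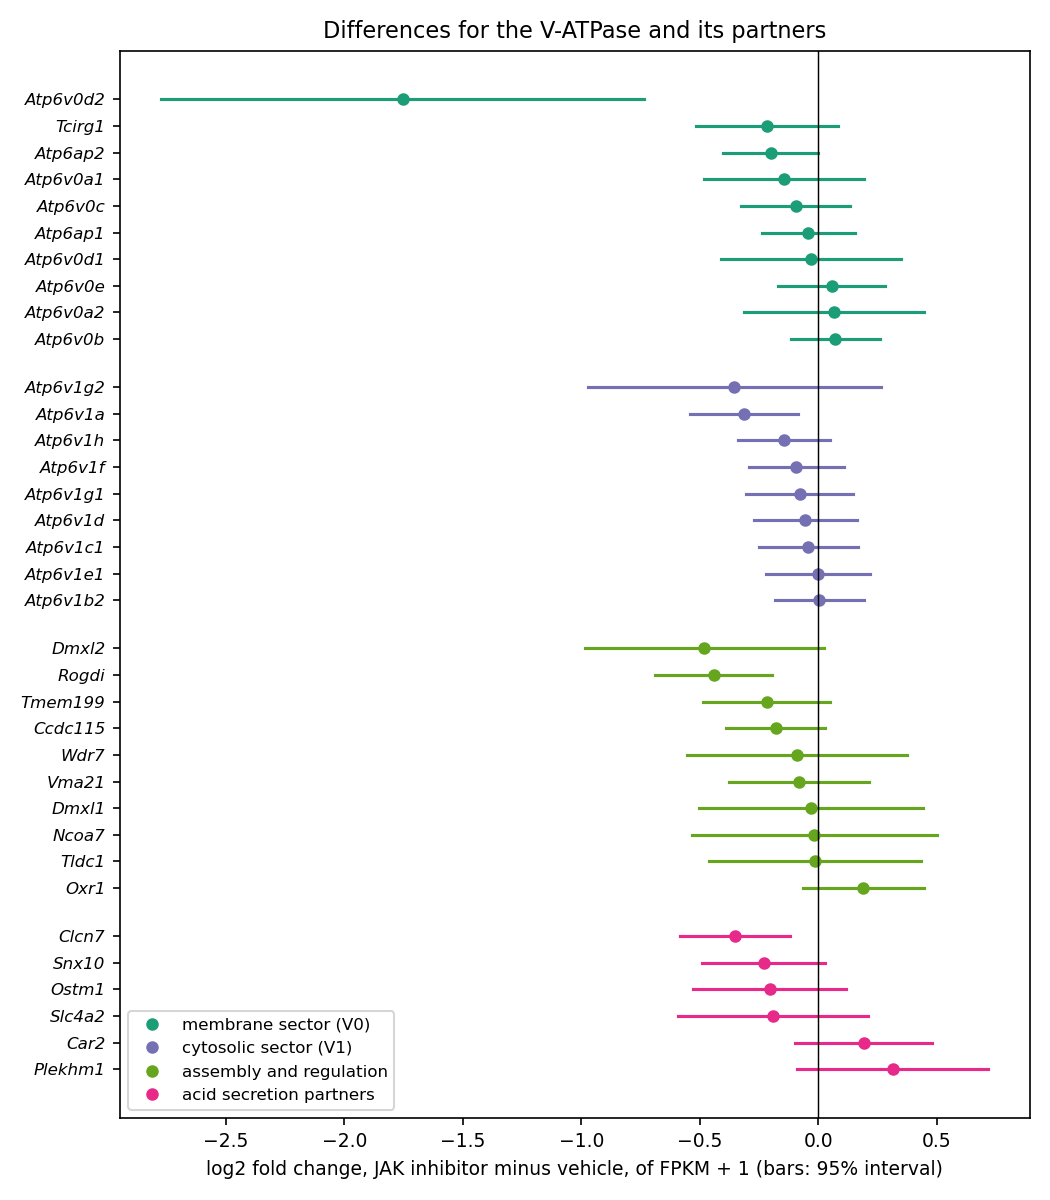
Log2 difference of FPKM + 1, JAK inhibitor minus vehicle (points), with its 95% interval from limma (bars), for the tested genes of the membrane sector, the V1 sector, assembly and regulation, and the acid secretion partners. Atp6v0d2 lies at -1.75, apart from all others shown, and the intervals of the other 9 membrane sector genes reach or cross 0.

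The MiT/TFE factors, which bind the letters CACGTG and related ones in promoters of lysosomal genes, and of which MITF also acts in osteoclasts, were all expressed. The log2 differences were 0.11 for Mitf, 0.17 for Tfeb, -0.17 for Tfe3 and 0.16 for Tfec. None had an unadjusted p under 0.05. The groups did not overlap for Tfeb, higher with the JAK inhibitor at 29.0 to 30.6 against 22.9 to 28.5 FPKM, nor for Tfe3, lower at 20.7 to 22.1 against 22.5 to 26.1 FPKM. Over all tested genes, 22% had groups that did not overlap, in either direction.

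Promoter sequences of RefSeq (GRCm38.p6, 250 bases before to 50 after each start) were matched for 8 of the 10 genes, all but Atp6v0d2 and Atp6v0a2. CACGTG, which reads the same on both strands, was found in 3 of the 8, those of Atp6v0b, Atp6v0d1 and Atp6v0e, against 8.09% of the 27025 genes with such a promoter and 7.15% of all 32851 promoters, since a gene can have several. It was found in 1 of 9 matched V1 promoters, that of Atp6v1a. The longer TCACGTGA, which contains CACGTG, was found in Atp6v0d1 and Atp6v0e, and in 1.12% of genes (0.974% of promoters). The related TCATGTGA was found for Atp6v0c, and in 1.15% of genes (0.986% of promoters). On either strand, none of the 8 held TTCNNNGAA, the spaced palindrome read by STAT factors downstream of JAK kinases, which 9.55% of genes (8.3% of promoters) held, or TGACTCA, the AP-1 letters, which 5.95% of genes (5.2% of promoters) held. These are matches of letters within short windows and say nothing of binding. The 3 promoters with CACGTG, in capitals, are shown from 50 bases before to 30 bases after the start, because they are the members that share these letters, and the groups overlapped for each of the 3 genes (chr4:117887300-117887379, minus strand, chr8:105566035-105566114, minus strand, and chr17:26676346-26676425, plus strand).
Atp6v0b: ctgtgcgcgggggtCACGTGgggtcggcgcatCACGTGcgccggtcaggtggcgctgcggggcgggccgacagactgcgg
Atp6v0d1: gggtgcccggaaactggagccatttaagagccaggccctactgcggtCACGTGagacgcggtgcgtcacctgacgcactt
Atp6v0e: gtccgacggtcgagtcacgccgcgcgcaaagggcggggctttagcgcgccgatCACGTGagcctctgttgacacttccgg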

How the data were processed

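For each mouse the authors deposited a table of FPKM, and the submitters' processing notes name the build mm10 and TopHat2 2.0.13, Bowtie2 2.2.3, SAMtools 0.1.19 and Cufflinks 2.2.1, with no roles. The study analyzed the RNA-Seq data in iDEP. Its methods name a stranded TruSeq kit and the labels a SMART-Seq HT kit with Nextera libraries, so the strand of counting is unclear. Of 24346 gene symbols, 8100 were listed at 0 in every mouse.

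From the deposited FPKM, log2(FPKM + 1) of the 11301 genes with at least 1 FPKM in at least 1 mouse was fitted by group, with no block, in limma (version 3.58.1, R version 4.3.3), with moderated variances that follow a trend on the mean and Benjamini-Hochberg p-values adjusted over all tested genes. Single genes and ratios had an exact 2-sided permutation test of 3 against 3 mice. In data simulated with normal noise, 200 of 11301 genes were changed by 1.5 on the log2 scale, drawn only from genes above a set mean level. Of these, 93% were recovered, and 5.1% of the calls were false. Recovery for genes as low and variable as Atp6v0d2 was not measured. The alternatives were a pseudocount of 0.1, no filter, a filter in 3 mice, quantile normalization, median ratio scaling, no trend, library weights, a replicate block and each mouse left out. The sum of Atp6v0c and Atp6v0c-ps2 and correlations without vehicle-treated mouse 3 were added after the values were seen.

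The genes and lists were chosen with earlier results of these data known. Named are all membrane sector genes, V1 and assembly genes with an unadjusted p under 0.05, all acid secretion partners and MiT/TFE factors, Ctsk, Acp5, and the 5 genes most like Atp6v0d2 and Tcirg1. Positions, transcripts and shared 75-base words came from GENCODE M21 on GRCm38, and promoters from RefSeq. Figures were drawn in matplotlib 3.10.9, and tables and permutation tests were made with SciPy 1.17.1, NumPy 2.4.6 and pandas 2.3.3 under Python 3.11.15.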

Additional observations from a re-analysis of the deposited data

How the results depend on the processing

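With 3 mice per group and unknown read depth, differences of the size seen in most membrane sector genes could not be resolved. The direction for Atp6v0d2, Tcirg1, both isoform ratios and both isoform shares was kept under all alternatives run. Leaving out a mouse could not reverse it for Atp6v0d2, the ratios or the shares, because their groups did not overlap. No other alternative was run for the shares. Atp6v0d2 ranged from -2.33 (pseudocount 0.1) to -1.20 (without vehicle-treated mouse 3), with adjusted p from 0.0443 to 0.385, and passed the threshold only with the replicate block (-1.754, adjusted p 0.0443). Tcirg1 ranged from -0.324 (without vehicle-treated mouse 1) to -0.084 (without vehicle-treated mouse 3). The counts of called genes moved more. Over all genes the main count was 15, against 2 without a filter, 34 with the filter in 3 mice, 2 without the trend, 63 with library weights, 67 with the replicate block, and 1 to 25 with 1 mouse left out (in the JAK inhibitor group 4, 1 and 3 when mouse 1, 2 or 3 was dropped, and in the vehicle group 8 and 25 when mouse 1 or 3 was dropped). Membrane sector genes called numbered 0, or 1 with the replicate block. Those lower at an unadjusted p numbered 1, against 2 without a filter, 2 with the filter in 3 mice, 2 with the block, and 1 to 2 with 1 mouse left out (2 without JAK inhibitor-treated mouse 3 or vehicle-treated mouse 1). V1 genes numbered 1, against 2 without a filter and 1 to 2 with 1 mouse left out (2 without vehicle-treated mouse 2). Differences near 0 changed sign with 1 mouse left out for Atp6v0a2 (-0.094 to 0.223), Atp6v0d1 (-0.170 to 0.124), Atp6v0e (-0.010 to 0.130) and Atp6ap1 (-0.095 to 0.010). Same-numbered mice did not deviate together (r of 0.016, 0.054 and 0), so the block shares only a number, and the cause of the moved counts was not tested.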

Other observations

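Among the osteoclast markers, Itgb3 and Nfatc1 are named after their values were seen. Itgb3, which encodes a chain of the integrin through which osteoclasts hold on to bone, was higher with the JAK inhibitor. Itgb3 was measured at 5.37, 7.20 and 4.99 FPKM in JAK inhibitor-treated mice 1 to 3 and at 3.16, 3.24 and 1.72 FPKM in vehicle-treated mice 1 to 3, with groups that did not overlap (log2 difference 0.90, SE 0.22, limma p = 0.00306, adjusted p = 0.123, exact permutation p = 0.1). It was lowest where Atp6v0d2 was highest, in vehicle-treated mouse 3. Nfatc1 lay at 26.0 to 28.3 FPKM with the JAK inhibitor and 25.7 to 33.9 FPKM with vehicle, and its groups overlapped.

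Atp6v0d2 had the lowest level of the 10 membrane sector genes, and a pseudocount of 1 therefore weighs on it most. Its difference was -1.75 with a pseudocount of 1 and -2.33 with a pseudocount of 0.1, whereas that of Tcirg1 was -0.22 under both.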
